A study of Mus musculus with 8 samples.

Results

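The genes described here are 10 regulators and effectors that cells are known to turn on when oxygen is scarce: Egln1 and Egln3 (oxygen sensors), Ndufa4l2, Bnip3, Pdk1 and Pfkfb3 (mitochondria and glucose use), Ddit4 (growth signalling), Adm and Vegfa (secreted signals) and Ankrd37 (an ankyrin-repeat protein). They were measured on 8 one-colour expression arrays of cells labelled as mouse pluripotent lines, all of the C57BL/6J strain: induced pluripotent stem cells (iPSCs) made with OSKH on 4 arrays, control iPSCs made with OSK on 3 arrays, and the embryonic stem cell (ESC) line B6J-23 on 1 array. The letters are read here as Oct4, Sox2, Klf4 and the oocyte linker histone H1foo, although no label spells them out. The labels do not give oxygen tension, and leave unsaid if a group's arrays come from different clones or cultures, so that any spread between them may be technical. The members are the genes whose RefSeq transcripts are named by 15 of the 55667 probes, and all 10 genes passed the filter of at least 3 arrays well above background, through 14 of these probes. They were chosen with their levels on these 8 arrays and their OSKH minus OSK differences already known, so their values are given as a description, with no test.

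In normal oxygen, prolyl hydroxylases of the Egln family mark the alpha subunits of the hypoxia-inducible factors (HIFs) for destruction by the Vhl ubiquitin ligase. When oxygen falls, or when the hydroxylases are blocked in other ways, HIF alpha pairs with Arnt and binds short DNA elements with the core ACGTG or GCGTG near its target genes. The targets cut oxygen use by mitochondria, raise glycolysis, send out signals for vessel growth and include Egln1 and Egln3 themselves, which closes a feedback loop. Mouse pluripotent cells are known to respond to the culture's oxygen through this pathway. The part of culture oxygen in the levels below was not tested.

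Promoter sequences are shown because several of the 10 genes were high on the same array. RefSeq windows of the 250 bases before the gene start (build GRCm38.p6) were given for 9 of the 10 genes, in 12 windows, since some genes have more than 1 start. ACGTG or GCGTG, searched on both strands, was present in 10 of the 12 windows, against 38.6% of all 32851 windows. All 9 genes had a match in at least 1 window. For Vegfa this was only the window at its inner start, which lies inside the gene. The Vegfa matches fall in a stretch that reads as protein-coding sequence, so they are not matches in an upstream promoter. That count per gene has no counterpart over all genes, and the share per window is not one. ACGTG alone was in 16.6% of all windows and GCGTG alone in 28.2%. The windows of these genes had a median GC content of 62.2%, against 52.4% over all windows, and the motifs' share was not compared at equal GC. One stretch of 60 bases is given for 4 genes that were highest on the array OSKH 3, and for Ddit4 and Pdk1, which were not. Each reads 5′ to 3′ on the strand of the gene, with the core motif of either orientation in capitals (CACGT and CACGC are the reverse complements).
Egln3 (chr12:54204065-54204124, minus strand): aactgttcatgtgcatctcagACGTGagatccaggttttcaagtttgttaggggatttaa
Egln1 (chr8:124949291-124949350, minus strand): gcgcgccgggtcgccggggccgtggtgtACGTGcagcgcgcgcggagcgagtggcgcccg
Bnip3 (chr7:138909583-138909642, minus strand): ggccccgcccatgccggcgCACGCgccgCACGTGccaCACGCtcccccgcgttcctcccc
Adm (chr7:110627575-110627634, plus strand): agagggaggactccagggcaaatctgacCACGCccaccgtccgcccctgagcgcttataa
Ddit4 (chr10:59951926-59951985, minus strand): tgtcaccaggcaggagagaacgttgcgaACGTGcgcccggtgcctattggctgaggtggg
Pdk1 (chr2:71873118-71873177, plus strand): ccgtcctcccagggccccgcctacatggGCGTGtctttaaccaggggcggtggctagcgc

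The Bnip3 window held the most matches, 5, of which 4 are in the stretch shown, where ACGTG occurs on both strands of the palindrome CACGTG. The Adm motif shown begins 54 bases before the start, and that stretch also lies within the span of the lncRNA gene Gm28863. The Egln3 motif begins 229 bases before the start. Of the 2 Vegfa windows, the one at the outer start held no match. Both kinds of gene, those high on OSKH 3 and those not, carried the letters.

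Levels below are log2 processed signals minus the 75th percentile of the array, so that 0 is the level of that percentile and 1 unit is a doubling. Each array had 51.4% to 59.0% of its probes well above background, and precision is limited by how few arrays there are. Of 10 pluripotency markers, 10 were above background on every array, with a log2 summed level of 9.22 to 9.75. That sum rests mostly on the brightest markers, such as Dppa5a at 8.27 to 8.80, and some dimmer ones varied more. Tfcp2l1 ran from 1.19 on OSKH 2 to 3.49 on OSKH 1, Esrrb from 4.64 to 6.86 and Klf4 from 1.69 to 3.69 on the same arrays. Pou5f1 ran only from 6.09 to 6.41. OSKH 4 stood apart in markers of other cells. Its mesendoderm and endoderm markers, 10 of 10 above background, had a log2 summed level of 5.41, against -0.81 to 2.24 on the other arrays. Its trophectoderm markers summed to 6.27, against 4.36 to 5.00, and 6 of 8 were above background, as on ESC, OSK 2 and OSK 3. That sum rests mostly on Krt18, at 5.60 there. Cdx2, Krt7, Krt8, Krt18 and Eomes, which is in both lists, were highest on OSKH 4, and Tfap2c on OSKH 1. Elf5 and Hand1 were above background on 0 arrays. The file headers place the 8 arrays in 2 rows of 1 slide. Slide row 1 held the ESC array with OSKH 1, 2 and 3, and slide row 2 held OSKH 4 with every OSK array. The comparison of OSKH with OSK is thereby partly a comparison of slide rows, and every value within slide row 2 rests on OSKH 4 as the single OSKH array.

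Among the oxygen sensors, Egln3, a prolyl hydroxylase that is itself a strong HIF target, separated the 2 iPSC groups. Its level was -0.10, 0.17, 1.47 and -0.24 on OSKH 1 to 4 and -0.95, -1.01 and -0.69 on OSK 1 to 3, with ESC at -0.34. All OSKH arrays lay above all OSK arrays, OSKH 3 stood highest, and ESC lay between the groups. The means were 0.33 ± 0.78 (SD, n = 4) and -0.88 ± 0.17 (SD, n = 3), a difference of 1.21 (SE 0.41) or 2.32-fold. Without OSKH 3 the difference was 0.83, and within slide row 2, OSKH 4 lay 0.65 above the OSK mean. A second probe of the same transcript gave a difference of 1.09.

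Egln1, the main prolyl hydroxylase acting on HIF alpha, was dim, and was well above background on 7 of 8 arrays. Its level was -3.71, -3.16, -2.56 and -3.80 on OSKH 1 to 4, -3.55, -3.41 and -3.62 on OSK 1 to 3 and -3.17 on ESC. OSKH 3 was again highest, while OSKH 1 and 4 lay below every OSK array, so the groups overlapped. The difference between groups was 0.22 (SE 0.30) and turned to -0.034 without OSKH 3 and to -0.28 within slide row 2.

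Of the genes that act in mitochondria, Ndufa4l2 varied most, with a range of 22.4-fold over the 8 arrays. The protein is a HIF-induced relative of a respiratory chain subunit and is known to lower the activity of complex I. Its level was -2.24, -2.08, 1.42 and -1.93 on OSKH 1 to 4, against -2.64, -2.43 and -2.40 on OSK 1 to 3 and -3.06 on ESC. OSKH 3 lay 3.51 units, or 11.4-fold, above the mean of the other OSKH arrays, which sat close together at -2.08 ± 0.15 (SD over OSKH 1, 2 and 4). All OSKH arrays were above all OSK arrays, and ESC was lowest. The group means were -1.21 ± 1.76 (SD, n = 4) and -2.49 ± 0.13 (SD, n = 3). The difference of 1.28 (SE 0.89) was 0.41 without OSKH 3 and 0.56 within slide row 2.

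Bnip3, a protein of the outer mitochondrial membrane that directs mitochondria to autophagy, was among the brighter genes. It was at 4.06, 3.96, 5.25 and 3.35 on OSKH 1 to 4, 3.78, 3.43 and 3.59 on OSK 1 to 3 and 3.64 on ESC. OSKH 3 was highest and OSKH 4 lowest of the 8, and the other 6 arrays, ESC among them, lay between 3.43 and 4.06. The group difference was 0.55 (SE 0.41), 0.19 without OSKH 3 and -0.25 within slide row 2. Each of its 3 probes was highest on OSKH 3, which exceeded the other OSKH arrays by 1.44, 1.46 and 1.23.

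Pdk1, the kinase that shuts off pyruvate dehydrogenase and so keeps pyruvate out of the mitochondria, did not share this pattern. It was at 3.59, 3.36, 3.32 and 2.36 on OSKH 1 to 4, 3.73, 3.36 and 3.17 on OSK 1 to 3 and 3.25 on ESC. OSKH 4 stood lowest, OSKH 3 lay among the others, and the remaining arrays of both groups and ESC overlapped. The difference of -0.27 (SE 0.31) was -0.0024 over arrays 1 to 3 of each group, without OSKH 4, and -1.06 within slide row 2. OSKH 4 is the array with high mesendoderm and endoderm markers and a high sum of the trophectoderm list, mostly through Krt18. The fibroblast markers were also highest there, at 4.82, with ESC nearly level at 4.78 and the other arrays at 2.60 to 3.85. On ESC Pdk1 was at 3.25, among the other arrays. The part of such cells in the low Pdk1 level was not tested, and fewer cells of a type cannot be told apart from less RNA per cell in these samples.

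Pfkfb3 makes the sugar phosphate that speeds up phosphofructokinase, the main control point of glycolysis. It was at 0.79, 0.50, 0.81 and 0.47 on OSKH 1 to 4, 0.02, -0.02 and 0.45 on OSK 1 to 3 and 0.82 on ESC. The OSKH arrays were all above the OSK arrays, though OSKH 4 and OSK 3 were nearly level, and ESC was level with OSKH 1 and 3. The difference was 0.49 (SE 0.16), 0.43 without OSKH 3 and 0.31 within slide row 2. It was the smallest range of the 10 genes, at 1.79-fold. A second probe, for another Pfkfb3 transcript, stayed below the well-above-background limit on all arrays.

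Ankrd37, a HIF target that encodes a small ankyrin-repeat protein, was at -0.44, -0.30, 0.86 and -0.83 on OSKH 1 to 4, -0.49, -0.85 and -0.81 on OSK 1 to 3 and -0.61 on ESC. OSKH 3 stood alone, and the remaining 7 arrays overlapped between -0.85 and -0.30. The group difference of 0.54 (SE 0.38) was 0.20 without OSKH 3 and -0.11 within slide row 2.

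Ddit4, also called Redd1, restrains the growth kinase mTORC1 and answers to stress and p53 as well as to hypoxia. It was at 5.64, 4.26, 5.31 and 4.21 on OSKH 1 to 4, 4.44, 4.39 and 4.21 on OSK 1 to 3 and 3.74 on ESC. OSKH 1 and 3 stood apart at the top, OSKH 2 and 4 were close to the lowest OSK array, and ESC was below all 7 iPSC arrays. The difference of 0.51 (SE 0.38) was 0.36 without OSKH 3 and -0.14 within slide row 2. Of 14 genes that restrain mTORC1 or share p53 or ATF4 control with Ddit4, 5 were highest on OSKH 1 (Atf4, Chac1, Ddit3, Sesn2 and Trib3). OSKH 1 was the highest array for 20.4% of all features, the largest share of any array. Of the 14 genes, 3 were highest on OSKH 3, against 13.4% of all features. Chac1, which breaks down glutathione, was at 6.02 on OSKH 1 and 2.70 to 3.82 elsewhere, and Ddit3, the stress factor Chop, was at 1.29 there and -1.87 to -1.33 elsewhere. On OSKH 3 they were at 3.13 and -1.86. Asns, another ATF4 target, was at 6.05 on OSKH 1 and 6.17 on OSKH 4, its highest array. Other genes of this list went the other way. The p53 targets Cdkn1a, Mdm2, Sesn1 and Trp53inp1 were highest on OSK 1, and Cdkn1a, Sesn1 and Tsc2 were lowest on OSKH 1. The part of these genes' control in the Ddit4 level was not tested.

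Of the secreted signals, Adm, the vasodilator peptide adrenomedullin, was at -2.84, -2.98, -0.81 and -3.17 on OSKH 1 to 4, -3.33, -2.997 and -3.23 on OSK 1 to 3 and -2.54 on ESC. OSKH 3 was 2.19 units, or 4.56-fold, above the other OSKH arrays, which overlapped OSK. ESC came next, above every array but OSKH 3. The difference of 0.73 (SE 0.57) was 0.19 without OSKH 3 and 0.011 within slide row 2.

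Vegfa, the growth factor of blood vessels, was at 1.09, 0.10, 0.19 and 0.45 on OSKH 1 to 4, -0.43, 0.08 and 0.45 on OSK 1 to 3 and -0.48 on ESC. OSKH 1 was highest, OSKH 3 lay in the middle, the groups overlapped, and ESC was just below OSK 1. The difference was 0.43 (SE 0.30), 0.52 without OSKH 3, 0.42 within slide row 2, 0.21 without OSKH 1 and 0.19 without OSK 1, so that it rested in large part on each of those arrays. Its 2 probes, which name different transcripts, did not rank the arrays alike. The second was highest on OSKH 4, at 0.24 against -2.25 to -0.98 on the other 7. Neither probe was highest on OSKH 3.

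**Figure D1:**
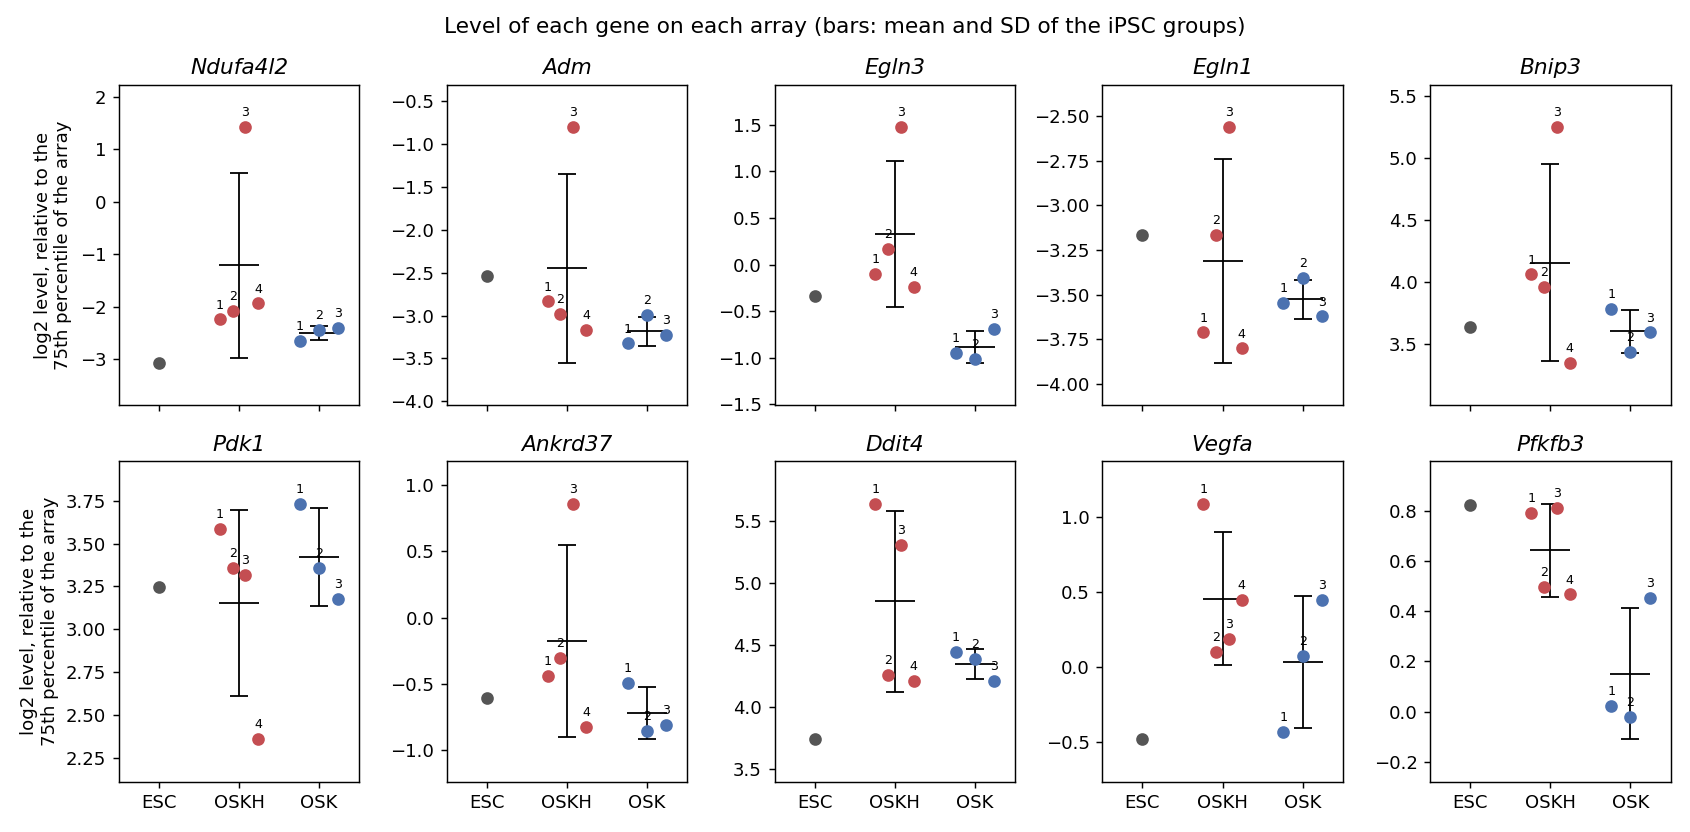
Log2 level of each of the 10 genes (vertical axis, 0 being the array's 75th percentile, with its own scale per gene) in ESC, OSKH and OSK; points are single arrays with their numbers, and bars give the mean and SD of the 4 OSKH and 3 OSK arrays. OSKH 3 is the highest point for Ndufa4l2, Adm, Egln3, Egln1, Bnip3 and Ankrd37, but not for Pdk1, Ddit4, Vegfa or Pfkfb3.

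Between OSKH and OSK, 9 of the 10 genes lay higher in OSKH, against 46.3% of all 22685 features tested, and the median difference was 0.52 against -0.013 over all features. Groups did not overlap, with OSKH above, for 3 genes, Ndufa4l2, Egln3 and Pfkfb3, against 3.15% of all features, and with OSKH below for 0 genes, against 4.19%. These counts come from the comparison the genes were chosen on, so nothing is read from them. In limma, 0 features passed an adjusted p under 0.05 (0%, 0 of 10 genes), the smallest adjusted p was 0.463, and 1470 features (6.48%; 2 of the 10 genes) had an unadjusted p under 0.05. Without moderation of the variance the counts were 0 and 1385.

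The median difference of the 10 genes moved with OSKH 3 and with slide row. It was 0.28 without OSKH 3, with 8 genes higher. Within slide row 2, which sets OSKH 4 alone against OSK, it was -0.048, with 5 genes higher and 5 lower. With slide row as a block, which rests on those same 4 arrays, it had the same value, and 47 features were called over the whole array, 0 of them among the 10 genes. The 3 genes whose groups did not overlap, together with Vegfa and, by 0.011, Adm, were the 5 that lay higher in both slide row 2 and the whole comparison. For those 3 genes a value above 0 in slide row 2 was fixed in advance, since OSKH 4 lay above the same OSK arrays.

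**Figure D2:**
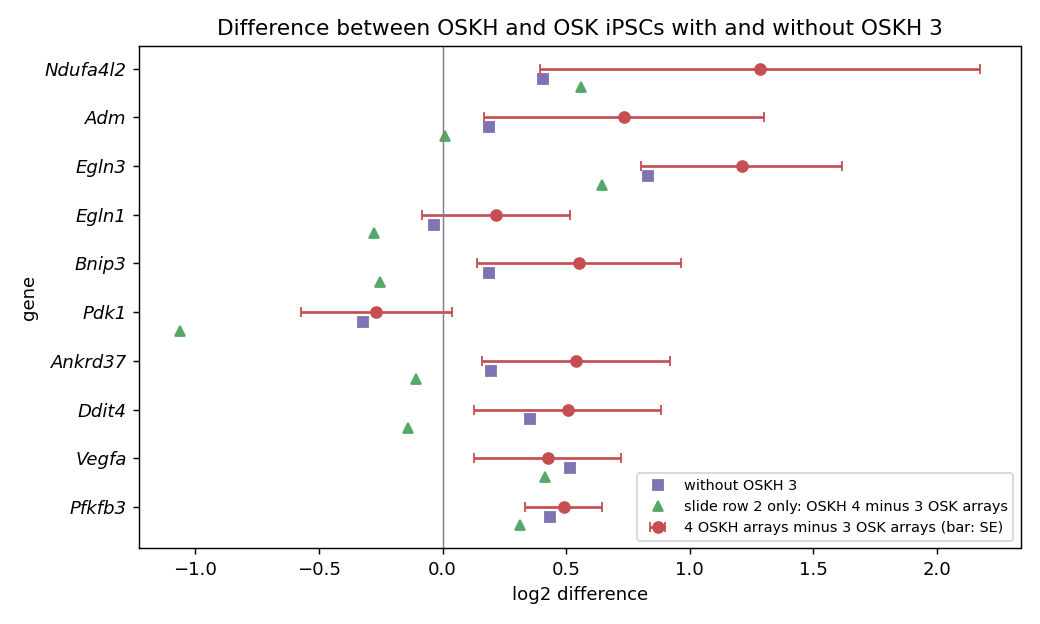
Log2 difference between OSKH and OSK (horizontal axis) for each gene. Circles with SE bars use 4 OSKH and 3 OSK arrays, squares leave out OSKH 3, and triangles use slide row 2 alone, where OSKH 4 is set against the 3 OSK arrays. For Egln3 the markers stay between 0.65 and 1.21, while for Bnip3 and Ankrd37 they move from 0.55 and 0.54 to -0.25 and -0.11.

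The array OSKH 3 stood highest for most of the 10 genes. This array was singled out after its values were seen, and its comparison has no replicate and no test. Of the 10 genes, 6 were highest on OSKH 3 among the 8 arrays, against 13.4% of all features. It lay over 1 log2 unit above the mean of OSKH 1, 2 and 4 in 5 of the 10 genes, Ndufa4l2, Adm, Egln3, Bnip3 and Ankrd37, against 1.07% of all features, and by 0.9964 in Egln1. The median over the 10 genes was 1.19, against 0.034 over all features. Against the OSK mean, OSKH 3 was 15.1-fold higher in Ndufa4l2, 5.19-fold in Adm, 5.12-fold in Egln3, 3.13-fold in Bnip3 and 2.98-fold in Ankrd37. Averaged over the 10 genes after subtracting each gene's own mean, the level was 1.16 on OSKH 3 and between -0.31 and 0.22 on the other 7 arrays.

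Values that could move with this array are as follows. OSKH 3 had the largest share of probes above background, 59.0%, against 51.4% to 55.4% on the others, and its part in the dim genes was not tested. Its pluripotency markers summed to 9.42 (9.22 to 9.75 on the others), its fibroblast markers to 3.85 (2.60 to 4.82) and its endothelial markers to 3.22 (2.97 to 3.40). None of these sums was at an extreme there, but single fibroblast markers were. Thy1 was at 3.44, its highest array. Col1a2 (-0.68), Col3a1 (-3.265), Dcn (0.32) and Postn (-6.08) were at their lowest among the OSKH arrays, while Col1a1, Fbln2 and Twist2 were not. On OSKH 3 the mesendoderm and endoderm markers summed to 0.90 (-0.81 to 5.41) and the trophectoderm markers to 5.00 (4.36 to 6.27). With normexp background correction, the difference of OSKH 3 from the other OSKH arrays was 2.77 in Ndufa4l2, 1.46 in Adm and 0.40 in Egln1.

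**Figure D3:**
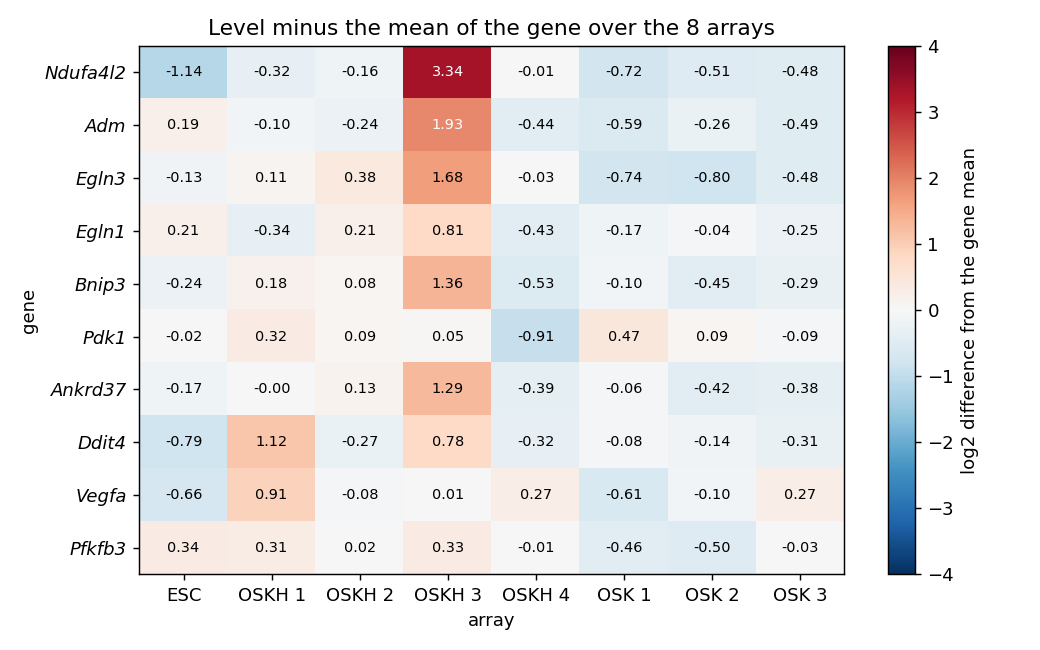
Level of each gene on each array minus the gene's mean over the 8 arrays, in log2 units (colour and number); rows are genes and columns arrays. The OSKH 3 column is the darkest, led by Ndufa4l2, and its average over the 10 genes is 1.16.

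The genes that make up and control HIF itself were highest on OSKH 3 in 2 of 15 cases, against 13.4% of all features. Their median against the other OSKH arrays was -0.0020, and that of all features 0.034. Of these 15 HIF subunits, partners and regulators, 0 passed in any of the comparisons by limma (0% of all features), and 9 lay higher in OSKH than OSK, with a median difference of 0.045. Hif1a, the HIF-1 alpha subunit, was at 1.59 on OSKH 3 and 1.80 to 1.95 on the other 7 arrays. Arnt, the shared beta subunit, was at 2.46 on OSKH 3 and 2.30 to 2.41 elsewhere, Vhl at 1.86 (1.68 to 1.97 elsewhere) and Egln2, the third hydroxylase, at 5.10 (5.09 to 5.52 elsewhere). Of these genes Arnt was highest and Hif1a lowest on OSKH 3, by 0.13 and -0.32 from the other OSKH arrays. Epas1, the HIF-2 alpha subunit, had the largest difference in the list. It was at 4.37, 3.80, 3.33 and 3.58 on OSKH 1 to 4, 4.81, 4.59 and 4.47 on OSK 1 to 3 and 4.41 on ESC. All OSKH arrays lay below all OSK arrays, OSKH 3 lowest, with a difference of -0.86 (SE 0.25) and a limma adjusted p of 0.732. The coactivators Ep300 (0.14) and Crebbp (-0.13) came next. HIF alpha is controlled largely through its protein's stability, which these arrays do not measure.

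Glucose uptake and glycolysis genes were measured for 19 of 19. By limma 0 passed in any comparison. Between OSKH and OSK 15 lay higher, with a median of 0.17, and 11 of the 19 were highest on OSKH 3 (13.4% of all features), with a median of 0.36 above the other OSKH arrays. Slc16a3, the lactate exporter Mct4, was at 5.90 on OSKH 3 and 3.72 to 5.16 elsewhere. Pgk1, a glycolytic kinase, was at 7.37 on OSKH 3 and 6.47 to 6.87 elsewhere, and Slc2a1, the glucose transporter Glut1, at 5.75 against 4.72 to 5.39. Slc2a3, the transporter Glut3, had the largest group difference at 0.88 (SE 0.32, limma adjusted p = 0.75), with OSKH 1 highest, followed by Aldoc, an aldolase, at 0.68 (SE 0.25) and Slc16a3 at 0.63 (SE 0.51), or 1.02 without OSKH 1. On OSKH 3, 17 of the 19 lay above the mean of the other OSKH arrays, a measure whose median over all features was 0.034. Hk2, a hexokinase, ran the other way, at 3.20 on OSKH 3, its lowest array, and 3.30 to 3.40 on the other OSKH arrays, all below the OSK arrays at 3.57 to 3.74, with a difference of -0.34 (SE 0.085, limma adjusted p = 0.732).

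Other known HIF targets were less uniform. Of 46 genes listed, 38 were tested and 0 passed in any comparison by limma. Between OSKH and OSK 20 lay higher, with a median of 0.0086. On OSKH 3, 12 were highest (13.4% of all features), with a median of 0.16 above the other OSKH arrays and 0 above 1. Ndrg1, a stress-induced differentiation gene, had the largest difference, 1.77 (SE 0.74), but was at 1.08, -1.65, 0.20 and 1.72 on OSKH 1 to 4 and -1.52 to -1.31 on OSK, with OSKH 4 highest and OSKH 2 lowest. Car12, a carbonic anhydrase that handles acid, differed by 0.91 (SE 0.22), with all OSKH arrays above all OSK arrays and a limma adjusted p of 0.732. Plin2, a coat protein of lipid droplets, differed by 0.56 (SE 0.22). On OSKH 3, 29 of the 38 lay above the mean of the other OSKH arrays. The values ran from P4ha2, a collagen prolyl hydroxylase, at 0.82 down to Rab20, a small GTPase, at -0.44. The median of all features was 0.034, and their share above 0 on this measure was not counted.

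Ligands and receptors of the Vegf and adrenomedullin systems were tested for 12 of 15 genes, and 0 passed in any comparison by limma. Calcrl, the receptor of adrenomedullin, stayed below the well-above-background limit on all arrays, while its partners Ramp1, Ramp2 and Ramp3 were measured. Flt1, a Vegf receptor, differed most, by 1.78 (SE 1.39), through OSKH 4, where it was at 3.25 against -2.95 to -0.72 on the other arrays. Nrp2, a co-receptor, differed by 1.09 (SE 0.54), or 0.61 without OSKH 1, and was at 2.45 on OSKH 1 and 0.17 to 1.17 on OSKH 2 to 4, all above OSK. Ackr3, a scavenging receptor, differed by 0.67 (SE 0.22). Kdr, the main Vegfa receptor, differed by -0.02.

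Close relatives of the 10 genes were tested for 15 of 15, with 0 passing in any comparison by limma and a median OSKH minus OSK difference of 0.014. Ndufa4, the respiratory chain relative of Ndufa4l2, spanned 5.13 to 5.37 over the 8 arrays and Bnip3l, the relative of Bnip3, 3.50 to 3.95. The largest differences were Pfkfb2 (0.50, SE 0.44), Ddit4l (-0.49, SE 0.28) and Adm2 (0.43, SE 0.50). Without OSKH 1 they were 0.084, -0.23 and 0.0029, so Pfkfb2 and Adm2 rested on that array and Ddit4l only in part. On OSKH 3 the list had a median of 0.084 against the other OSKH arrays. Of the 14 genes that restrain mTORC1 or share control with Ddit4, 0 passed in any comparison by limma, 6 lay higher in OSKH, and the median difference was -0.066. Cdkn1a, the p53 target p21, lay at -0.58 (SE 0.28), Ddit3 at 0.48 (SE 0.78) and Chac1 at 0.48 (SE 0.77). Without OSKH 1 they were -0.36, -0.28 and -0.25.

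**Figure D4:**
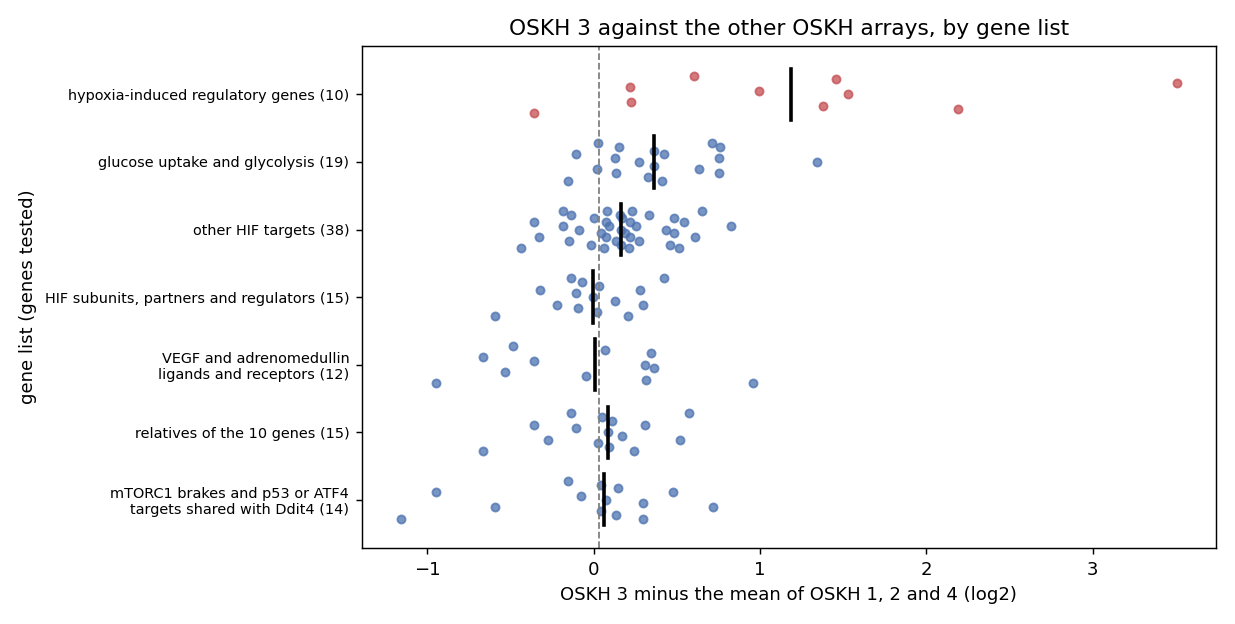
Log2 level on OSKH 3 minus the mean of OSKH 1, 2 and 4 (horizontal axis) for each gene tested, by gene list; thick lines are list medians and the dashed line is the median of all 22685 features, 0.034. The hypoxia-induced regulatory genes have a median of 1.19 and the glycolysis list one of 0.36, while HIF subunits and regulators centre on -0.0020.

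Against the ESC array, Ndufa4l2, Ddit4 and Vegfa were higher on all 7 iPSC arrays, 3 of 10 genes against 8.09% of all features, and Pfkfb3 was lower on all 7, narrowly so on OSKH 3. In OSKH 7 of the 10 genes lay above ESC, against 40.1% of all features, and in OSK 4 did, against 42.7%. ESC lies in slide row 1 and every OSK array in slide row 2, so OSK and slide row cannot be told apart in a direct comparison with ESC. In limma, 0 features passed between OSKH and ESC (0%, smallest adjusted p 0.392) or between OSK and ESC (0%, smallest adjusted p 0.207), with 990 (4.36%) and 1365 (6.02%) features at an unadjusted p under 0.05, and 1476 and 1673 without moderation of the variance. The 2 comparisons share the single ESC array, whose spread is assumed to be that of the iPSC arrays. Ddit4 lay above ESC by 1.11 (SE 0.55) in OSKH and 0.61 (SE 0.57) in OSK, and Vegfa by 0.94 (SE 0.43) and 0.51 (SE 0.45). Ndufa4l2 lay above it by 1.86 (SE 1.31) and 0.57 (SE 1.35). Pfkfb3 differed from ESC by -0.18 (SE 0.23) in OSKH and -0.67 (SE 0.24) in OSK. Egln3 differed by 0.67 (SE 0.60) in OSKH and -0.55 (SE 0.61) in OSK. Without OSKH 3, 6 of the 10 genes lay above ESC in OSKH, with Ndufa4l2 at 0.98 and Egln3 at 0.28, and Adm went from 0.096 to -0.45. With slide row as a block, 9 of the 10 genes lay above ESC in OSK, as Egln3 turned to 0.21, Adm to 0.33, Egln1 to 0.29, Ankrd37 to 0.76 and Bnip3 to 1.04. Within slide row 1, OSKH 1 to 3 exceeded ESC by 2.10 in Ndufa4l2, 1.33 in Ddit4, 0.94 in Vegfa and 0.85 in Egln3.

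The named genes whose centred levels over the 8 arrays came closest to the average of the 10 genes, among 13055 genes well above background on every array, were Gstm7, Irf8, Espn, Plch2, Rnf128, Crybb3, Batf and Septin4. Their root mean square difference from that average was 0.15 to 0.22 log2 units, where a flat profile is 0.47 away. They were picked for likeness to an average that peaks on OSKH 3, so their high value there was fixed in advance. Several were dim, such as Gstm7 at -4.01 to -2.69 and Batf at -3.18 to -1.74, while Rnf128 was at 1.59 to 2.84. Gstm7, a glutathione transferase, was the closest, and Irf8 and Batf are transcription factors of immune cells. Espn, an actin-bundling protein, was also the closest single gene to Adm (0.34), Bnip3 (0.25) and Ankrd37 (0.20). The gene nearest to Ndufa4l2, E230025N22Rik, was 0.84 away, where a flat profile is 1.30 away. The gene nearest to Pfkfb3, Fbxl17, was 0.070 away, where a flat profile is 0.31 away. Further nearest genes were Grtp1 for Pdk1 (0.12), Jdp2 for Vegfa (0.13), Cela1 for Egln1 (0.15), Pmel for Ddit4 (0.23) and Fgg for Egln3 (0.27). These distances depend on a gene's own range, so they do not rank the matches.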

How the data were processed

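Amplified RNA carried Cy3, per the labels' protocols. The deposited intensity of a spot is the processed signal of Agilent Feature Extraction 11.5.1.1, per the file headers, with background and spatial trend removed on each array and no scaling across arrays. The deposited value table holds the authors' log2 values, which differ from the log2 of that signal by a constant on each array, within 0.01. The deposited flags (well above background, saturated, outlier) are 0 or 1. Flagged outlier spots were dropped, 59305 spots were averaged to 55667 probes, and the 75th percentile was subtracted. RefSeq accessions were named through a GRCm38.p6 table. Each gene was represented by the probe with the highest mean among those well above background on at least 3 arrays, giving 22685 features. Groups came from sample titles. The 3 groups were fitted in limma 3.58.1 (R 4.3.3) with Benjamini-Hochberg adjustment at 0.05, checked on simulated data. SE values come from that fit.

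The 10 genes and all lists were chosen with earlier results of these data known. The genes named are the 10, the 3 of each pathway list with the largest OSKH minus OSK difference, Hif1a, Epas1, Arnt, Vhl and Egln2, and those closest in profile. Others (Pgk1, Slc2a1, Hk2, P4ha2, Rab20, Atf4, Sesn1, Sesn2, Trib3, Asns, Mdm2, Trp53inp1, Tsc2, Kdr, Calcrl, the Ramp genes, Ndufa4, Bnip3l) were chosen after their values were seen. So were the single pluripotency, fibroblast and trophectoderm markers. OSKH and OSK arrays with the same number deviated together (correlations of 0.47, 0.26 and 0.45 over features), so the numbers were treated as pairs in a blocked fit. Those arrays also share a column of the slide. Protein sequences were not used here.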

Additional observations from a re-analysis of the deposited data

Results flagged for a closer look

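In 2 of the 10 genes, the highest of the 4 OSKH arrays lay further from the rest than Dixon's critical gap ratio for 4 arrays, and in both it was OSKH 3. The ratio of the gap to the whole range was 0.917 for Ndufa4l2 and 0.858 for Adm. Both genes were chosen with these values known, so the ratios are a description and not a test. Chance passes the limit, by any array at either end, in about 1 in 20 groups of values that were not chosen so. Over all features, OSKH 3 passed it at the high end in 0.41%. The same ratio was 0.761 for Egln3, 0.689 for Ankrd37 and 0.624 for Bnip3, which did not reach the limit, and 0.780 at the low end for Pdk1, where OSKH 4 stood apart.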

How the results depend on the processing

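The number of features called in each comparison was 0 under most alternatives. With slide row as a block it was 47 for OSKH minus OSK and 38 for OSK minus ESC, within slide row 2 it was 30 for OSKH minus OSK, and with dim probes kept it was 11 for OSKH minus ESC and 9 for OSK minus ESC. The 10 genes held 0 of these calls. The median OSKH minus OSK difference of the 10 genes was -0.048 with slide row as a block and within slide row 2, ran from 0.28 to 0.74 when single arrays were left out, and ran from 0.47 to 0.54 over the other settings. With array number as a block (the pairing by number, which leaves out OSKH 4 and ESC), 0 features were called, with 2326 at an unadjusted p under 0.05, the median was 0.74, and no call changed. The median of OSKH 3 minus the other OSKH arrays ran from 0.93 to 1.38 over 6 alternatives added after the data were seen. Egln1 moved beyond its spread with normexp (0.40 against 0.9964). OSK minus ESC values of 8 genes moved with slide row as a block, 5 of them from below 0 to above, where they rest on OSKH alone to link the rows. The mean signal of the spots was not used here, so normexp was run on the median signal. Egln1 was close to background, above it on 7 of 8 arrays.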
